A study of Homo sapiens with 54 samples.

Results

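The 40 interferon-stimulated genes described here are a fixed list of symbols, chosen with earlier results of these data known. All 40 symbols were found among the 59368 genes of the deposited gene tables. They were grouped by what their products are known to do: the RNA sensors IFIH1 and DDX58 (RIG-I), the transcription factors STAT2, IRF1, IRF7 and IRF9, the IFIT and OAS families, other antiviral effectors, the ISG15 system, the PARP9-DTX3L-PARP14 group, the IFI genes with XAF1, EPSTI1 and SP110, and the chemokines CXCL10 and CXCL11.

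Interferons are secreted proteins that warn cells of viruses. Cells sense foreign or misplaced nucleic acid through receptors such as RIG-I, MDA5 (IFIH1) and cGAS, and then make interferon. Interferon acts on its receptors through JAK kinases, and a complex that contains STAT2 and IRF9 binds the interferon-stimulated response element (ISRE) in promoters. A further element of interferon-responsive promoters is the gamma-activated site (GAS). The genes switched on this way block viral RNA, mark proteins with ISG15 and call in immune cells. Intestinal epithelial cells are known for a strong response to type III interferon.

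RNA-seq was performed on HT-29, DLD-1 and HCT-116, which are established lines of human colorectal cancer cells. Sensitive parental cells of every line were compared with cells that had been made resistant to 5-fluorouracil (5-FU) by passaging in rising concentrations of it. Per the paper's methods, the resistant lines were kept in medium with 5-FU above the dose tested here, and no drug-free period is stated. The drug inhibits thymidylate synthase and is also built into nucleic acids. For 24 h, sensitive and resistant cells were given either uracil, which served as the control, or 5-FU, both at 10 µM, and a further group was given the drug and then X-rays at a dose set for that line, so no group was irradiated without 5-FU. Each of the 18 conditions had 3 biological replicates, which gave 54 libraries with 38957142 to 218518344 estimated counts (median 51373543). The sources used here do not say whether a resistant line was a clone or a population. Levels are given as TPM, the share of all transcripts after correction for their length. A gene was called where edgeR's quasi-likelihood test gave an adjusted p (Benjamini-Hochberg) of 0.01 or less and the log2 fold change was 1 or more in size. In bulk RNA, fewer expressing cells and less RNA per cell cannot be told apart. The p-values measure the spread between the 3 libraries of a condition, pooled over all conditions of the line. For comparisons between lines it was pooled over all 18 conditions.

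Epithelial identity and the labels were checked first. EPCAM, CDH1, KRT8, KRT18 and KRT19 were at 1 TPM or more in 54 of 54 libraries, while CDX2 and VIL1, markers of intestinal epithelium, reached it in 45 and 27. Of the leukocyte markers, PTPRC and CD3E reached 1 TPM in 0 libraries, LYZ in 13, CD14 in 26 and CD68 in 51. The summed level of 5 leukocyte markers was 1429 to 1709 TPM in sensitive HT-29 and at most 18.2 TPM elsewhere. LYZ, the lysozyme gene, which reached 1685 TPM, made up nearly all of that sum, and the summed level of 7 fibroblast and endothelial markers was at most 33.0 TPM in any library. The 9 libraries labelled resistant HT-29 went against their label. Of 64 genes that marked sensitive HCT-116 against both other lines, 62 were at 1 TPM or more in them, against 0 of 12 HT-29 markers, and none of the 40 genes was among these markers. These cells are called labelled resistant HT-29 throughout, and every difference from sensitive HT-29 is also a difference between cells with the markers of separate lines. One sensitive DLD-1 library, uracil replicate 1, also stood apart. Its summed level of 20 genes that are high in HT-29 and low in DLD-1 was 19.1 TPM, against 3.79 and 2.15 TPM in the other two, and resistant DLD-1 uracil replicate 1 had 18.9 TPM, against 3.41 and 3.33 TPM. One of the 20 genes, BST2, is also one of the 40. The 20 genes were summed in DLD-1 libraries only. LYZ, another of the 20, was at 4.41 TPM in replicate 3 of labelled resistant HT-29 with 5-FU and irradiation. The other replicates of that condition had 0.274 and 0 TPM.

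The binding sites through which interferon is known to act were looked up in the promoters, and a few are shown, 6 from genes that rose with 5-FU in sensitive HT-29 and 1 each from DTX3L and IRF1, which did not pass the fold threshold there but show a shared promoter and a GAS core. RefSeq promoter windows (GRCh38.p14, 250 bases before to 50 bases after each start) were present for 33 of the 40 genes. The ISRE core, taken as GAAA followed after any pair of bases by GAAA and searched on both strands, stood in the windows of 21 of these 33 genes and of 4.38% of 27303 genes, and the GAS core TTCNNNGAA stood in 11 of 33 genes and 9.38% of genes. The windows below are written along the gene's own strand with the core in capitals. The IFIT1 window carries the core on the opposite strand, so its capitals are the reverse complement.
ISG15 (plus strand, chr1:1013380-1013409): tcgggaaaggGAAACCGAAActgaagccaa
IFI6 (minus strand, chr1:27672288-27672317): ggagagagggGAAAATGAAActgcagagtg
IFI27 (plus strand, chr14:94110631-94110660): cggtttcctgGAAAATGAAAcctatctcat
MX1 (plus strand, chr21:41420559-41420588): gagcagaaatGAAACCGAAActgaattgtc
OAS3 (plus strand, chr12:112938321-112938350): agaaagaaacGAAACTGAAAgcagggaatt
IFIT1 (plus strand, chr10:89392510-89392539): cactttccccTTTCGGTTTCcctaggtttc
DTX3L (plus strand, chr3:122564322-122564351): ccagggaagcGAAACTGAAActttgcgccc
IRF1, GAS core (minus strand, chr5:132490879-132490907): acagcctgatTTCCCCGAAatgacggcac
The DTX3L window is also the window of PARP9, which starts in the opposite direction from the same stretch, so this site belongs to both genes. In IFI27 a GAS core overlaps the ISRE cores, and IFI6, IFI27, ISG15, MX1, OAS3 and IFIT1 each had more than 1 ISRE core in their windows, of which 1 is shown. XAF1 and SAMD9L, which were among the genes with the highest log2 fold changes below, had neither core in their windows. A match to these letters is a description of the sequence and not evidence of binding.

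**Figure D1:**
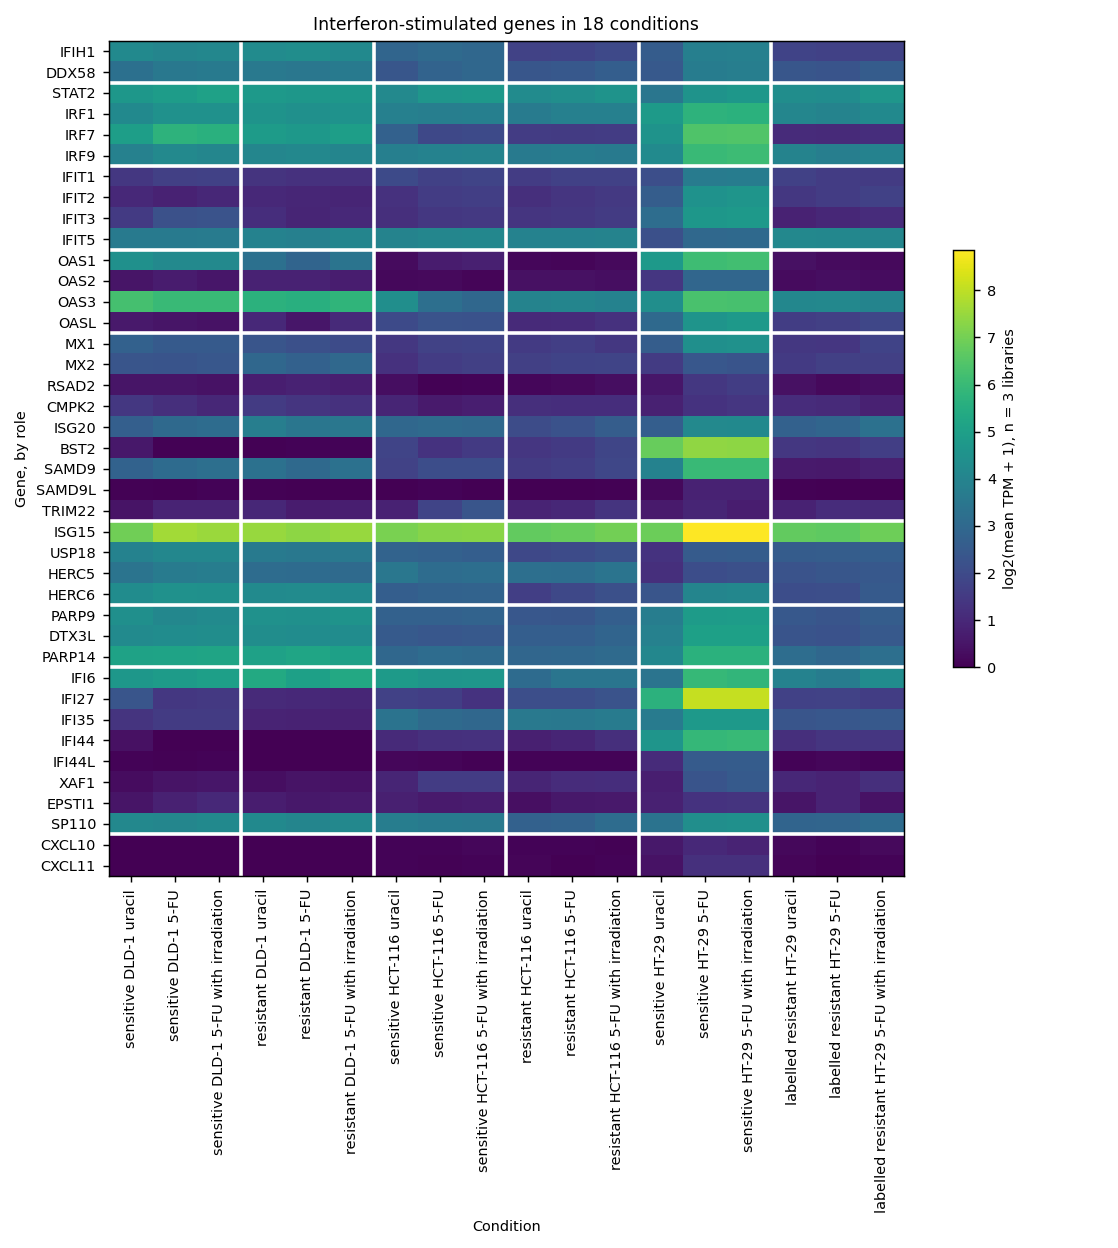
Mean level of each of the 40 interferon-stimulated genes (rows, grouped by role) in the 18 conditions (columns), as log2(TPM + 1) of the mean of 3 libraries. The columns of sensitive HT-29 with 5-FU, and with 5-FU and irradiation, are the highest for 31 of the 40 genes. The share of all genes that are highest in these columns was not computed.

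The levels of the 40 genes differed widely before any treatment. In every one of the 54 libraries 19 of the 40 genes were at 1 TPM or more, and no gene stayed below 1 TPM in all of them. Under uracil the median level over the 40 genes was 5.62 TPM in sensitive DLD-1, 2.99 TPM in sensitive HCT-116 and 5.26 TPM in sensitive HT-29. With 5-FU the median was 20.2 TPM in sensitive HT-29, against 5.87 TPM in sensitive DLD-1 and 3.00 TPM in sensitive HCT-116. In the resistant cells the median stayed between 6.01 and 7.26 TPM in DLD-1, between 2.04 and 2.68 TPM in HCT-116 and between 2.17 and 2.30 TPM in labelled resistant HT-29. The heat map of condition means shows this as 2 bright columns, those of treated sensitive HT-29.

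ISG15, a ubiquitin-like protein that is joined to other proteins during the interferon response, was among the most abundant of the 40 in every line, with 122 ± 4.31, 134 ± 1.90 and 115 ± 0.952 TPM (SD, n = 3) under uracil in the sensitive cells of DLD-1, of HCT-116 and of HT-29. Other genes belonged to 1 or 2 lines. OAS1, an enzyme that makes the activator of RNase L, was at 21.01 ± 1.06 TPM in DLD-1, 26.1 ± 3.34 TPM in HT-29 and 0.197 ± 0.0804 TPM in HCT-116. BST2 (tetherin), which holds virus particles at the cell surface, was at 111 ± 0.612 TPM in HT-29, 2.55 ± 0.491 TPM in HCT-116 and 0.483 ± 0.790 TPM in DLD-1, where only replicate 1 was above 0.1 TPM. In the fit of all 54 libraries, DLD-1 and HCT-116 differed under uracil in 21 of the 40 genes (15 higher in DLD-1), HT-29 and HCT-116 in 25 (20 higher in HT-29), and HT-29 and DLD-1 in 23 (15 higher in HT-29). The background shares were 30.7%, 37.5% and 30.9% of the 26043 genes tested. For the genes higher in the line named first the shares were 14.2%, 16.7% and 13.4%, and for those lower 16.6%, 20.9% and 17.4%. As shares of the 40, all 3 totals were above the background.

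In response to 5-FU, sensitive HT-29 cells raised most of the 40 genes. Of the 40, 28 rose by a log2 fold change of at least 1 and 0 fell, against 12.2% of the 23756 genes tested that were called in either direction with 8.86% higher and 3.30% lower. The fitted log2 fold change was above 0 for all 40, from 0.35 for BST2 to 2.61 for XAF1, with a median of 1.38 against 0.03 over all genes tested. In 39 of the 40 genes the lowest 5-FU library was above the highest uracil library, which was so for 44% of 18378 genes, and the exception was TRIM22. The 12 genes that were not called had log2 fold changes of 0.35 to 0.98, and each of them except CXCL10 (adjusted p = 0.043) passed the adjusted p. Changes are relative to a scaling in which the median gene did not move. On the TPM scale the median log2 ratio of all genes was itself 0.16, and that of the 32 members tested on it was 1.64. The fits used counts without a correction for transcript length, so a fitted value need not match the ratio of the TPM beside it. For these 32 members the TPM ratio was higher by a median of 0.24 on the log2 scale.

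The largest response among genes above 1 TPM was that of XAF1, a pro-apoptotic interferon target. It had 0.394, 0.761 and 0.895 TPM under uracil and 3.57, 4.40 and 3.88 TPM with 5-FU, a log2 fold change of 2.61 (SE 0.25, adjusted p = 1.4e-09 in edgeR's quasi-likelihood test). The 2 groups of libraries did not overlap, although the gene was low in both.
IFI6, a mitochondrial and endoplasmic reticulum protein that protects cells from death during infection, had 8.65, 8.63 and 11.5 TPM under uracil and 63.4, 62.0 and 54.5 TPM with 5-FU (log2 2.45, SE 0.14). IFI27 had 49.5, 52.03 and 51.5 TPM under uracil and 259.8, 274.7 and 275 TPM with 5-FU (log2 2.25, SE 0.08). Both genes thus went from moderate to high levels in all 3 libraries.

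Among the antiviral effectors, MX1, a GTPase that traps viral capsids, had 4.85, 4.22 and 6.44 TPM under uracil and 19.9, 22.4 and 19.4 TPM with 5-FU (log2 2.19, SE 0.12). SAMD9, a restriction factor of poxviruses, had 14.0, 13.5 and 15.7 TPM under uracil and 63.5, 63.8 and 62.0 TPM with 5-FU (log2 1.88, SE 0.06). Of the 9 genes of this group 6 rose: MX1, SAMD9, SAMD9L, RSAD2 (viperin), ISG20 and TRIM22. BST2, the most abundant of them, had 111, 110.0 and 111 TPM under uracil and 172, 167 and 166 TPM with 5-FU, a log2 fold change of 0.35 (SE 0.05, edgeR adjusted p = 2.6e-07), which is under the fold threshold. MX2 and CMPK2 had log2 fold changes of 0.81 and 0.77.

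All 4 OAS genes rose, with log2 fold changes of 1.09 for OAS1, 1.40 for OASL, 1.70 for OAS2 and 1.90 for OAS3. OAS3, which has the highest affinity of the family for long double-stranded RNA, had 19.1, 19.3 and 20.9 TPM under uracil and 77.7, 79.1 and 77.7 TPM with 5-FU (SE 0.05). Of the IFIT genes, which bind the ends of viral RNA, IFIT1, IFIT2 and IFIT3 rose with log2 fold changes of 1.57, 1.85 and 1.36, and IFIT5 had 0.77. IFIT2 and IFIT3 reached 21.7 ± 0.403 and 24.5 ± 1.30 TPM (SD, n = 3) from 5.18 ± 0.422 and 8.03 ± 0.646 TPM.

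In the ISG15 system all 4 genes rose. ISG15 had 115, 116 and 114 TPM under uracil and 485, 465 and 443 TPM with 5-FU (log2 1.80, SE 0.05), the highest level of any of the 40 genes in the series. USP18, which removes ISG15 and restrains the receptor, went from 1.46 ± 0.199 to 4.82 ± 0.283 TPM (SD, n = 3), and the ligases HERC5 and HERC6 had log2 fold changes of 1.18 and 1.47. Of the group of PARP9, its partner ubiquitin ligase DTX3L and PARP14, only PARP14 passed the fold threshold (log2 1.35), while PARP9 had 0.98 and DTX3L 0.93.

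Sensors and transcription factors moved with the effectors. IFIH1 and DDX58 rose by log2 fold changes of 1.14 and 1.16, to 13.1 ± 0.518 and 12.1 ± 0.205 TPM (SD, n = 3). IRF7, the factor that amplifies interferon production, had 23.0, 20.1 and 24.5 TPM under uracil and 83.9, 85.8 and 83.3 TPM with 5-FU (log2 1.68, SE 0.05). IRF9, the DNA-binding part of the ISRE complex, had 14.3, 17.2 and 22.4 TPM under uracil and 60.0, 63.4 and 67.3 TPM with 5-FU (log2 1.80, SE 0.11). STAT2 (10.0 to 22.7 TPM, log2 0.77) and IRF1 (27.4 to 52.3 TPM, log2 0.74) passed the adjusted p but not the fold threshold. For STAT2 the ratio of the mean TPM was larger than the fitted value. The chemokine CXCL11 rose from 0.344 to 1.34 TPM (log2 1.67, SE 0.34), and CXCL10 had 0.485 and 1.05 TPM.

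**Figure D2:**
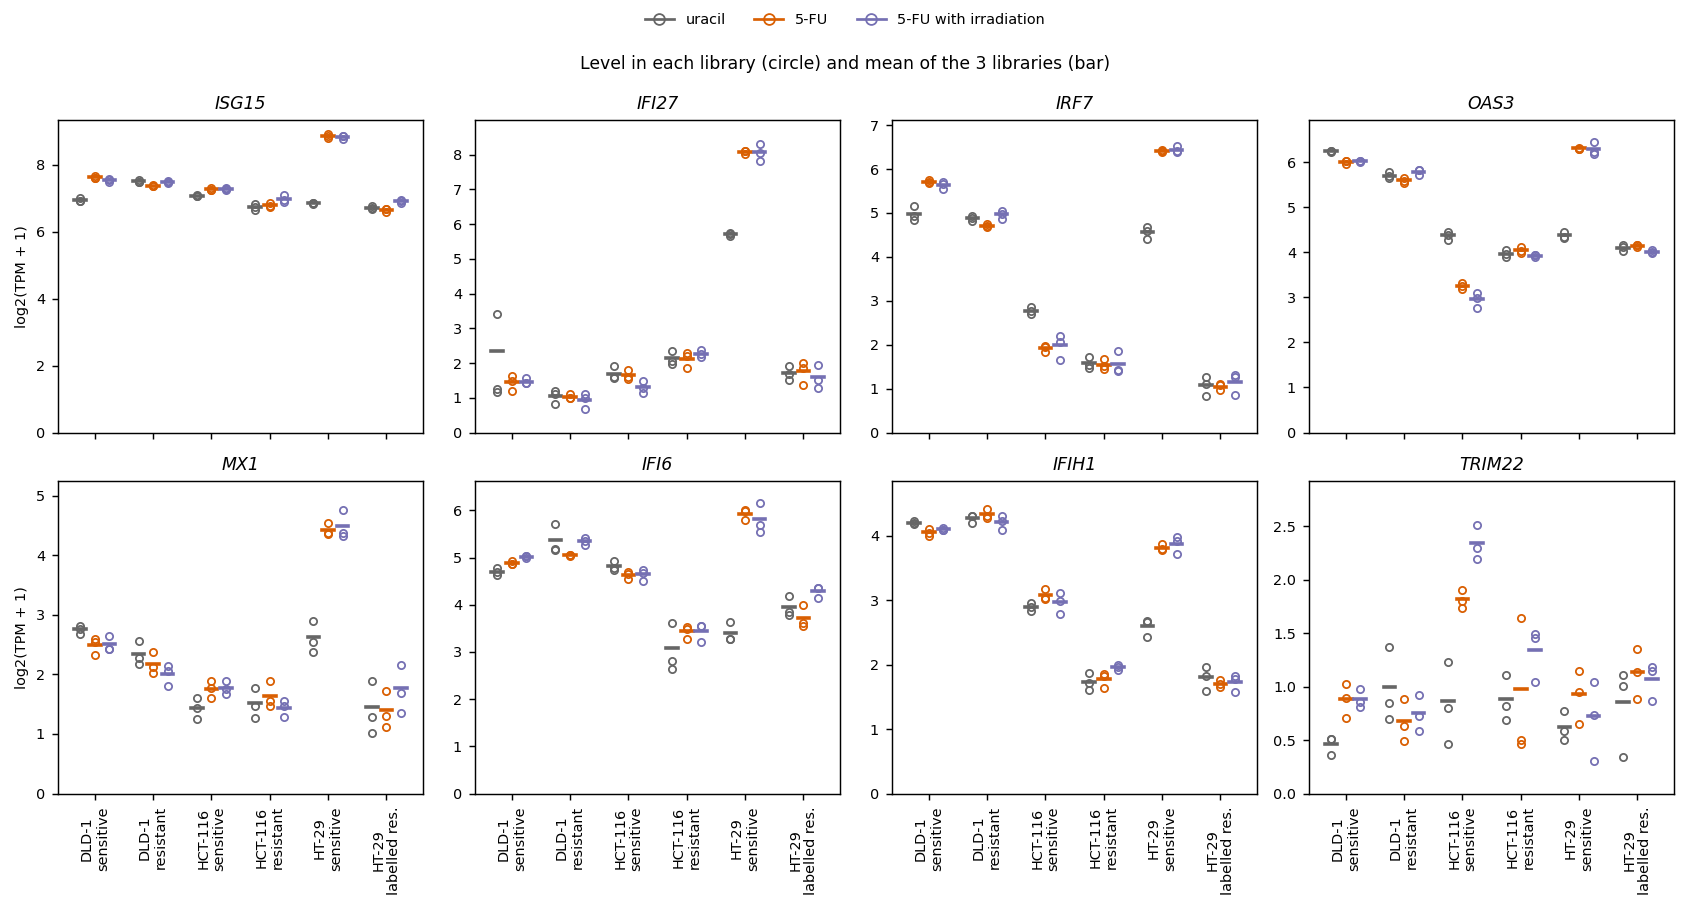
Level of ISG15, IFI27, IRF7, OAS3, MX1, IFI6, IFIH1 and TRIM22 in each of the 54 libraries, 1 panel per gene, on a log2(TPM + 1) axis that starts at 0. Each circle is a library and each short bar is the mean of the 3 libraries of a condition, coloured by treatment. In the first 7 panels the treated sensitive HT-29 libraries lie above the sensitive HT-29 uracil libraries, and ISG15 reaches 443 to 485 TPM with 5-FU alone.

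The response was also set against the promoter letters. Of the 21 genes with an ISRE core in the window, 15 rose in sensitive HT-29, with a median log2 fold change of 1.36. Of the 12 with a window and no core, 7 rose, with a median of 1.13. These medians are a description, and the groups overlapped from 0.35 to 2.45 and from 0.74 to 2.61.

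In the other 2 sensitive lines, the same 24 h of 5-FU moved few of these genes past the fold threshold. In sensitive DLD-1, 34 of the 40 genes had enough counts to be tested (BST2, SAMD9L, IFI44, IFI44L, CXCL10 and CXCL11 did not), 1 rose and 0 fell, against 4.02% of 21814 genes called (2.66% higher, 1.37% lower). The median log2 fold change of the 34 was 0.05, against 0.01 over all genes. The gene called was TRIM22, with 0.282, 0.420 and 0.425 TPM under uracil and 0.858, 1.03 and 0.627 TPM with 5-FU (log2 1.06, SE 0.27, edgeR adjusted p = 0.003). The call was lost without uracil replicate 2 (log2 1.04, adjusted p = 0.017) or 5-FU replicate 2 (log2 0.81, adjusted p = 0.033).
Under the fold threshold but outside the spread of the replicates were ISG15, with 127, 120.1 and 119.6 TPM under uracil and 196, 196 and 204 TPM with 5-FU (log2 0.59), IRF7, with 30.5 ± 3.78 and 51.5 ± 1.60 TPM (SD, n = 3), and IFIT3, with 1.87 ± 0.0170 and 3.58 ± 0.463 TPM. Among all 34, 15 passed the adjusted p alone, 9 of them higher and 6 lower. At an unadjusted p under 0.05 were 19 of the 34, and 11060 of all 21814 genes. In 17 of the 40 genes the lowest 5-FU library was above the highest uracil library, which was so for 34.6% of 18401 genes. In 7 the highest 5-FU library was below the lowest uracil library, as in 21.5% of these genes. Nothing about the 40 genes as a set is read from these counts.

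In sensitive HCT-116, 37 genes were tested (all but SAMD9L, CXCL10 and CXCL11). Of these 2 rose and 2 fell, against 8.14% of 22975 genes called, 4.79% higher and 3.36% lower. The adjusted p alone was passed by 13 of the 37, 7 higher and 6 lower. At an unadjusted p under 0.05 were 18 of the 37, and 13190 of all 22975 genes. All 5-FU libraries lay above all uracil libraries in 14 of the 40 genes and below in 11. Of 18969 genes, 26.4% and 33.4% did so. Nothing about the 40 genes as a set is read from these counts. OAS3 had 20.003, 20.99 and 18.3 TPM under uracil and 8.91, 8.04 and 8.496 TPM with 5-FU, and fell by 1.54 on the log2 scale (SE 0.05, edgeR adjusted p = 4.9e-17). IRF7 had 5.45, 5.78 and 6.21 TPM under uracil and 2.86, 2.89 and 2.56 TPM with 5-FU, and fell by 1.00 (SE 0.14). Both genes rose in HT-29, and in HCT-116 all 3 libraries with 5-FU lay below all 3 with uracil.
TRIM22, a ubiquitin ligase also known as a p53 target, rose from 0.737, 1.35 and 0.375 TPM to 2.74, 2.48 and 2.32 TPM (log2 1.74, SE 0.24), and XAF1 from 0.896 ± 0.219 to 1.95 ± 0.154 TPM (log2 1.05, SE 0.29, adjusted p = 0.0042). The count of 4 became 2 without 5-FU replicate 1, IRF7 was no longer called without 5-FU replicate 1 (log2 -0.9998) or 3 (-0.96), and XAF1 was no longer called without uracil replicate 2 (log2 0.99) or 3 (log2 0.87).

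**Figure D3:**
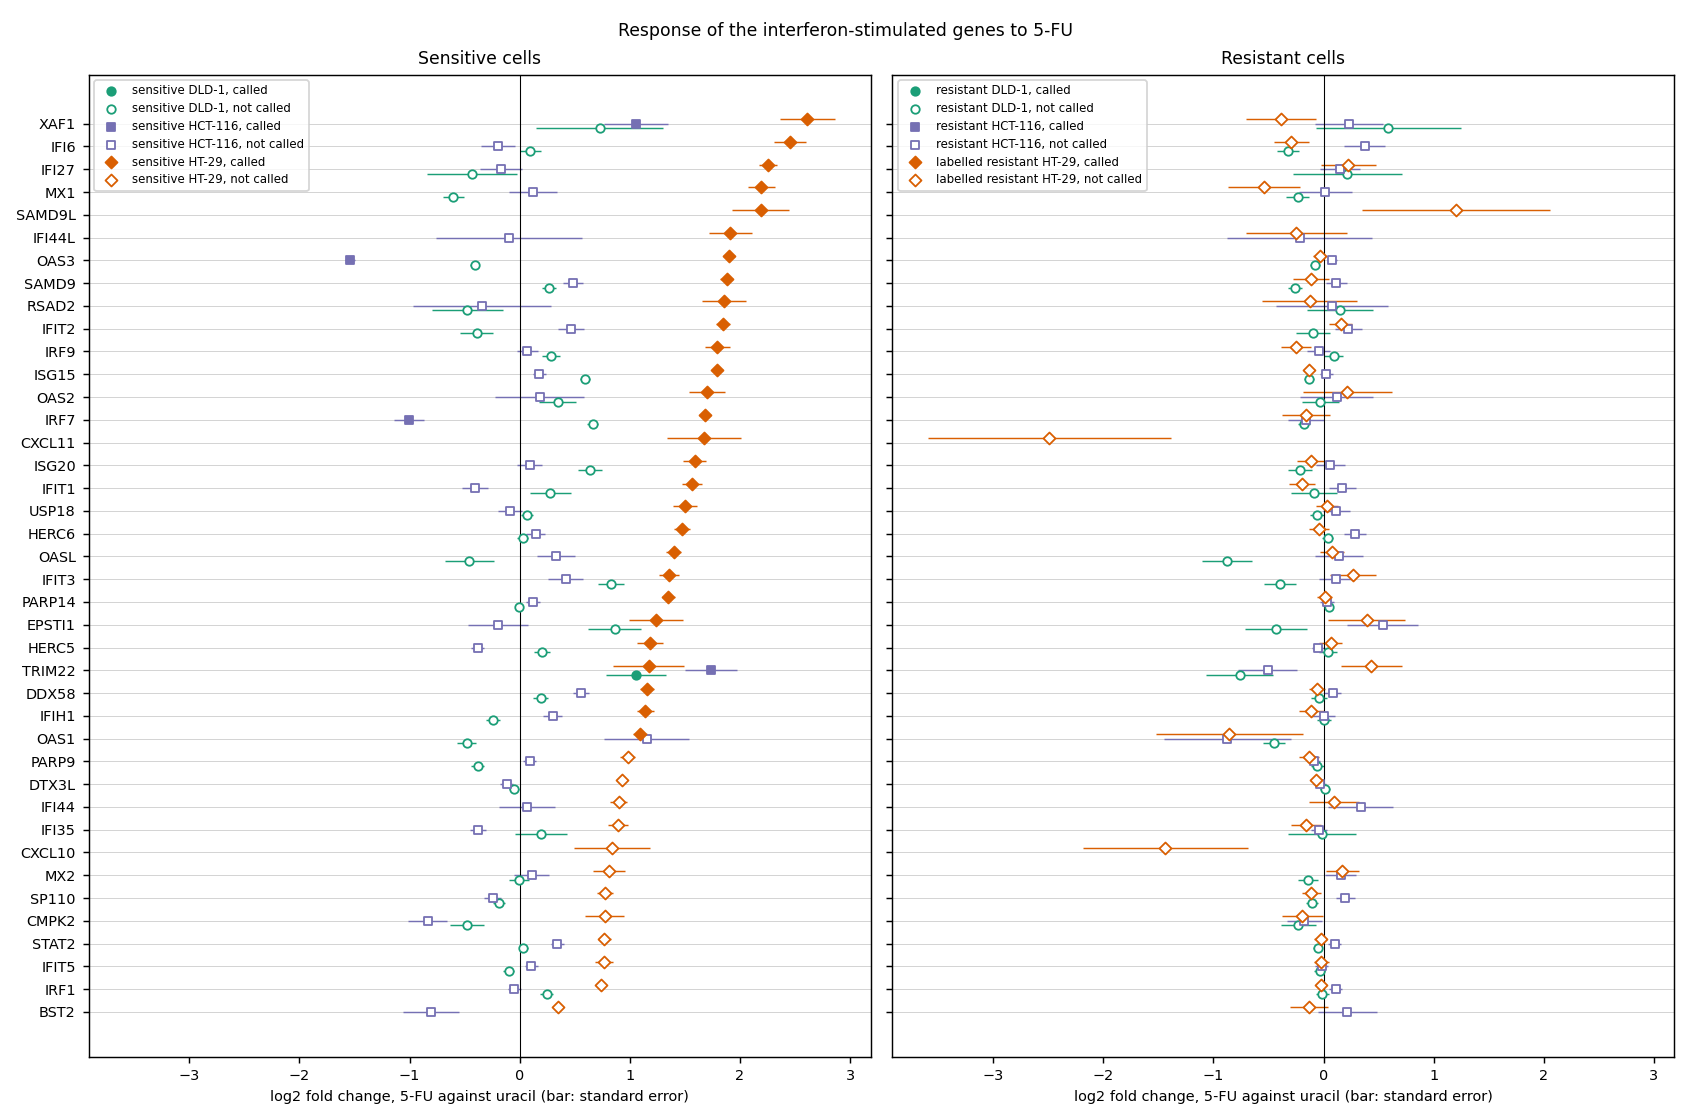
Log2 fold change of 5-FU against uracil for each gene (rows, ordered by the value in sensitive HT-29) in the 3 lines, with sensitive cells on the left and resistant cells on the right. Points are fitted values, bars are 1 standard error, and filled points were called. In sensitive HT-29 all 40 points lie above 0, while the points of the resistant cells lie around 0 and none is filled.

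The differences between the lines were themselves tested, as the difference of the 5-FU responses in the fit of all 54 libraries, at the adjusted p alone. The response was higher in HT-29 than in DLD-1 for 35 of the 40 genes, where 27.2% of all genes differed, 15.7% higher and 11.4% lower. The 40 include BST2, SAMD9L, IFI44, IFI44L, CXCL10 and CXCL11, which had too few counts to be tested in the fit of DLD-1 alone. It was higher in HT-29 than in HCT-116 for 34, where 34.9% of all genes differed, 19.9% higher and 15.0% lower. Between HCT-116 and DLD-1, 6 were higher and 7 lower in HCT-116, against 25.3% of all genes (12.0% higher, 13.3% lower). Among the lines in which each gene was tested, the fitted 5-FU response was highest in HT-29 for 38 of the 40 genes. The exceptions were OAS1 and TRIM22. The share of all genes with their highest response in HT-29 was not computed, so nothing is read from this count. Only 34 of the 40 were tested in all 3 lines. SAMD9L, CXCL10 and CXCL11 were tested in HT-29 alone, so their place was fixed in advance. These comparisons share the uracil and 5-FU libraries of each line.
The difference between HT-29 and HCT-116 was 3.50 (SE 0.07) on the log2 scale for OAS3, 2.74 (SE 0.12) for IRF7 and 2.71 (SE 0.21) for IFI6. Between HT-29 and DLD-1 it was 2.85 (SE 0.19) for MX1, 2.42 (SE 0.21) for IFI6 and 2.37 (SE 0.07) for OAS3. BST2, IFI44 and IFI44L were called in the latter contrast only with DLD-1 uracil replicate 1, the library that stood apart, which had 1.39 TPM of BST2 and 0.939 TPM of IFI44. Without it their differences were 0.95 (adjusted p = 0.59) and 0.95 (adjusted p = 1), in place of 3.61 and 5.71, and that of IFI44L was 1.99 (adjusted p = 0.026) in place of 2.50. All 3 calls were also lost without DLD-1 5-FU replicate 1.

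With irradiation added to 5-FU, 1 of these genes was called against 5-FU alone, TRIM22 in resistant HCT-116. In the sensitive cells (DLD-1 first, then HCT-116, then HT-29), 0 of these genes were called by edgeR or by DESeq2. At an unadjusted p under 0.05 were 4, 2 and 2 of them, and 2447, 1943 and 786 of all genes tested. The shares of all genes called were 0%, 0% and 0.00842%. In sensitive HT-29 with irradiation ISG15 had 468.1, 432.7 and 469.5 TPM, and IFI27 had 317, 224 and 261 TPM. Replicate 1 was the highest of the 3 for IFI27, IFI6 (69.8, 45.6 and 50.8 TPM), MX1 and XAF1, so the spread of these genes was wider than with 5-FU alone.
In resistant DLD-1, 0 of 34 genes were called by either tool, with 10 at an unadjusted p under 0.05, as were 4714 of all 21814 genes (0.142% of all genes called). In resistant HCT-116, TRIM22 was called (log2 1.16, SE 0.25, edgeR adjusted p = 0.0075), where 0.0261% of all genes were. At an unadjusted p under 0.05 there were 16 of the 37 genes, and 4305 of all 22975, and 30 of the 37 had a fitted value above 0 (median log2 0.16, against 0.02 over all genes). The libraries overlapped for TRIM22, with 0.376, 2.11 and 0.418 TPM with 5-FU and 1.06, 1.74 and 1.80 TPM with irradiation. The call was lost without 5-FU replicate 1 (log2 1.01) or 3 (1.04) or irradiated replicate 2 (1.05) or 3 (1.01). In labelled resistant HT-29, 0 of 40 were called by either tool, with 16 at an unadjusted p under 0.05, as were 7721 of all 23756 genes (0.434% of all genes called). Of these 40, 29 had a fitted value above 0, with a median log2 of 0.19 against 0.03 over all genes.

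The resistant cells showed almost no response of these genes to 5-FU itself. Against uracil, 0 genes were called in resistant DLD-1, resistant HCT-116 and labelled resistant HT-29 by edgeR or DESeq2, with 9, 2 and 2 at an unadjusted p under 0.05. At that p were also 4041 of all 21814, 1878 of all 22975 and 1280 of all 23756 genes. Few other genes responded either, since 0.0138%, 0% and 0.00421% of all genes were called. ISG15 in labelled resistant HT-29 had 103, 102 and 108 TPM under uracil and 102, 102 and 96.1 TPM with 5-FU.

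In resistant against sensitive DLD-1 under uracil, 1 gene was higher and 2 were lower, against 5.70% of all genes called (3.69% higher, 2.01% lower). ISG20, an exonuclease that degrades viral RNA, had 5.45, 5.41 and 5.62 TPM in sensitive and 14.2, 11.5 and 13.3 TPM in resistant cells (log2 1.44, SE 0.11, edgeR adjusted p = 1.5e-09). OAS1 had 20.96, 19.98 and 22.1 TPM in sensitive and 9.89, 7.48 and 8.33 TPM in resistant cells (log2 -1.36, SE 0.09). Both genes had libraries that did not overlap. IFI35 was lower by a log2 fold change of -1.04, a call that was lost without sensitive replicate 1 (-0.96) or 3 (-0.99) or resistant replicate 3 (-0.72).
With 5-FU, 1 gene was higher (RSAD2, log2 1.37, under 1 TPM in both) and 4 were lower, against 9.11% of all genes (3.88% higher, 5.23% lower). IFIT3 had 3.19, 4.09 and 3.47 TPM in sensitive and 0.901, 0.935 and 0.893 TPM in resistant cells (log2 -1.86, SE 0.13), and OAS1, IFI35 and EPSTI1 had log2 fold changes of -1.33, -1.25 and -1.06. The count of 5 was 3 without resistant 5-FU replicate 2.
The 5-FU response itself differed between resistant and sensitive DLD-1 for 9 genes, 2 higher and 7 lower in resistant cells, against 22.8% of all genes (13.7% higher, 9.12% lower). IRF7 (-0.84, SE 0.08), ISG15 (-0.72, SE 0.06) and IFIT3 (-1.23, SE 0.19) were among the 7, on the log2 scale.

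In resistant against sensitive HCT-116 under uracil, 2 genes were higher and 9 lower, against 11.0% of all genes called (4.17% higher, 6.80% lower). The median log2 fold change of the 37 genes was -0.34. IFI6 had 29.4, 26.4 and 25.6 TPM in sensitive and 5.20, 5.96 and 11.3 TPM in resistant cells (log2 -1.92, SE 0.17). IFIH1 had 6.40, 6.76 and 6.09 TPM in sensitive and 2.04, 2.30 and 2.64 TPM in resistant cells (log2 -1.53, SE 0.09). The libraries did not overlap for either gene, although resistant replicate 3 was the highest for IFI6.
IRF7 had 5.45, 5.78 and 6.21 TPM in sensitive and 1.75, 2.29 and 1.91 TPM in resistant cells (log2 -1.85, SE 0.15). OASL, HERC6, USP18, SP110, ISG20 and EPSTI1 were also lower, with log2 fold changes of -1.48, -1.29, -1.15, -1.14, -1.08 and -1.26, while MX2 and OAS2 were higher (1.02 and 1.31, OAS2 under 1 TPM). The count of 11 was 7 without sensitive uracil replicate 1, when OAS2, MX2, ISG20 and EPSTI1 were no longer called.
With 5-FU, 4 genes were higher and 8 lower, against 13.3% of all genes (5.28% higher, 8.03% lower). IFIH1 (log2 -1.83) and TRIM22 (-2.00) were lower and OAS3 was higher, with 8.91, 8.04 and 8.496 TPM in sensitive and 15.4, 16.2 and 14.9 TPM in resistant cells (log2 1.04, SE 0.05). The 5-FU response differed for 7 genes, 5 higher and 2 lower in resistant cells, against 29.7% of all genes (18.3% higher, 11.4% lower), with OAS3 at 1.61 (SE 0.07) and TRIM22 at -2.25 (SE 0.36) on the log2 scale.

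**Figure D4:**
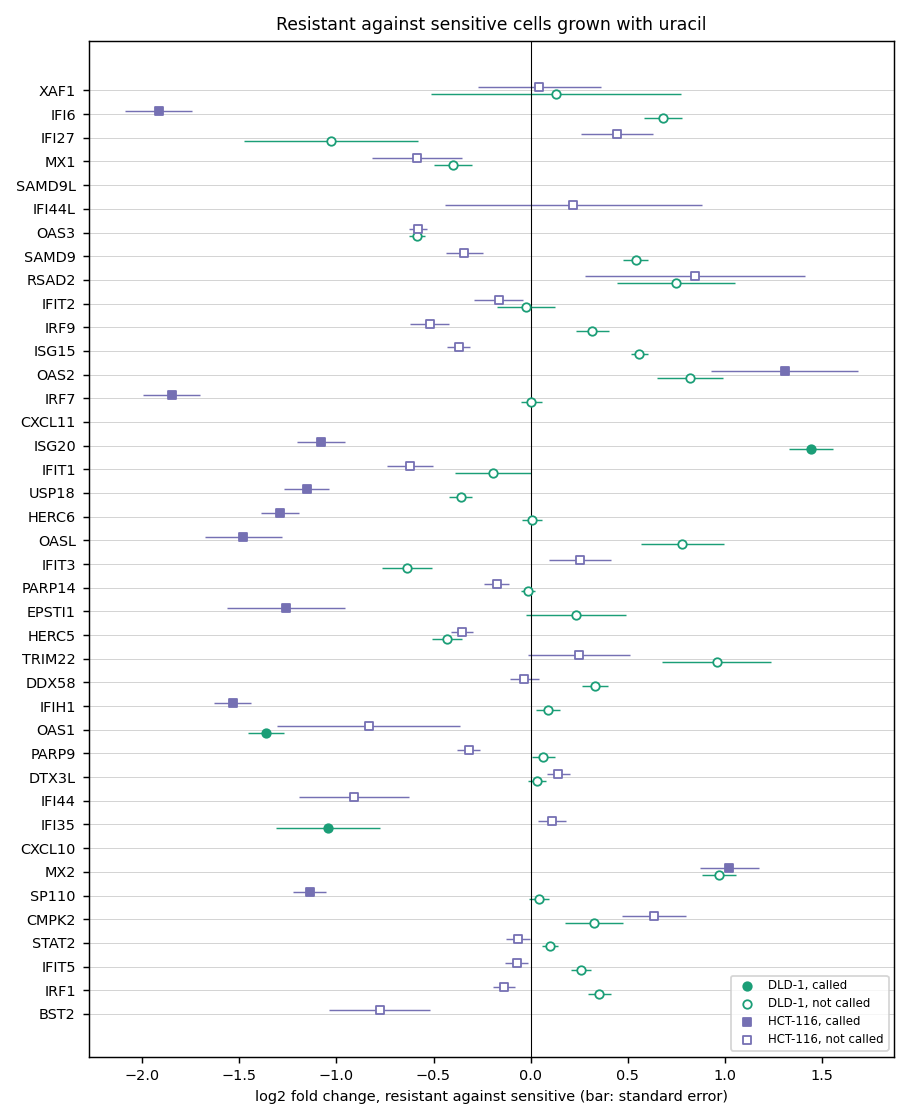
Log2 fold change of resistant against sensitive cells under uracil for each gene (rows) in DLD-1 (circles) and HCT-116 (squares). Points are fitted values, bars are 1 standard error, and filled points were called. The called values of HCT-116 lie mostly below 0, down to -1.92 for IFI6, and ISG20 in DLD-1 is the highest at 1.44.

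Labelled resistant HT-29 differed from sensitive HT-29 under uracil in 27 of the 40 genes, 4 higher and 23 lower, against 39.4% of all genes called (21.4% higher, 18% lower). BST2 had 111, 110.0 and 111 TPM in sensitive and 1.29, 2.10 and 1.70 TPM in labelled resistant cells (log2 -6.45, SE 0.08). SAMD9 had 14.0, 13.5 and 15.7 TPM in sensitive and 0.501, 0.588 and 0.557 TPM in labelled resistant cells (log2 -5.04, SE 0.09). OAS1 was at 24.6, 23.8 and 29.9 TPM in sensitive and 0.489, 0.2499 and 0.169 TPM in labelled resistant cells, where it rested on 5, 5 and 6 counts. These genes were well expressed in sensitive HT-29 and low or nearly absent in labelled resistant cells, and the libraries did not overlap.
IRF7 (log2 -5.44, SE 0.10) and IFI27 (-4.17, SE 0.15) were lower in the same way. IFIT5, USP18, HERC5 and TRIM22 were higher. IFIT5 had 3.37, 3.55 and 3.52 TPM in sensitive and 16.4, 16.6 and 16.3 TPM in labelled resistant cells (log2 1.91, SE 0.08), and TRIM22 was no longer called without labelled resistant replicate 3 (log2 0.93). With 5-FU, 34 genes differed, 33 of them lower, against 42.7% of all genes (21.7% higher, 21% lower), and the response to 5-FU was lower in labelled resistant HT-29 for 33 genes, against 35.4% of all genes (19.3% higher, 16.1% lower).
Set against HCT-116 in the fit of all 54 libraries, the same cells differed from sensitive HCT-116 in 6 genes, all lower, against 6.87% of all genes (2.27% higher, 4.60% lower), and from resistant HCT-116 in 5, all lower, against 3.36% (1.61% higher, 1.75% lower). IRF7 (log2 -3.21 and -1.37), SAMD9 (-2.20 and -1.86), HERC5 (-1.50 and -1.16) and IFI35 (-1.29 and -1.41) were lower in both comparisons. In mean level, 31 of the 40 genes in labelled resistant HT-29 were nearer to sensitive HCT-116 than to sensitive HT-29, as were 76.8% of 19331 genes.

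The rest of the pathway was read from further lists of ligands, receptors, kinases, sensors, regulators and other interferon-stimulated genes. Of all genes tested in sensitive HT-29 with 5-FU, 8.86% rose, and nothing is read from the counts of the short lists of receptors and sensing genes against it. In sensitive HT-29 with 5-FU, 1 of 6 receptor genes rose, IFNLR1, the specific chain of the type III interferon receptor (0.844 to 3.12 TPM, log2 1.51, SE 0.10). Of the JAK kinases, 0 of 3 were called by edgeR, although all 3 passed the adjusted p, with log2 fold changes of 0.38 for JAK1, 0.80 for JAK2 and 0.51 for TYK2.
Of 14 sensing genes, 2 rose. They were TICAM1, the adaptor of TLR3 (3.27 to 8.89 TPM, log2 1.20), and ZBP1, a sensor of Z-form nucleic acid (0.807 to 1.43 TPM, log2 1.95). For ZBP1 the ratio of the mean TPM was smaller than the fitted value, which comes from counts. CGAS (11.5 to 18.9 TPM, log2 0.49), TMEM173, which encodes STING (9.78 to 20.05 TPM, log2 0.81), and IRF3 (162 to 296 TPM, log2 0.51) stayed under the fold threshold.
Among other interferon-stimulated genes, 9 of 25 tested rose and 0 fell, which included UBA7, the E1 enzyme of ISG15 (1.15 to 6.05 TPM, log2 2.29), UBE2L6, its E2 enzyme (0.745 to 3.31 TPM, log2 1.96), and IFITM3, which blocks viral entry (10.3 to 51.1 TPM, log2 2.11). Of 5 negative regulators 2 rose, SOCS1 and SOCS3, both under 1 TPM. Interferon mRNAs themselves were scarce. Of 21 ligand genes, 20 never reached 1 TPM in any library (highest IFNL1, 0.589 TPM), and IFNE, the epithelial type I interferon, had 3.15 TPM under uracil and 6.74 TPM with 5-FU in sensitive HT-29 (log2 0.87, not called).

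**Figure D5:**
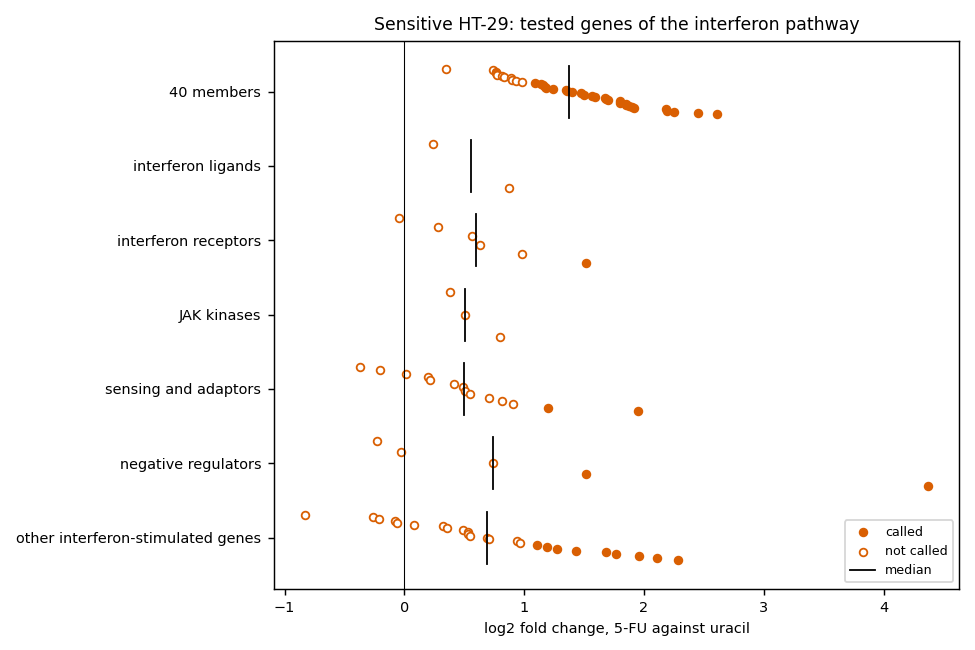
Log2 fold change of 5-FU against uracil in sensitive HT-29 for the 40 genes and for the tested ligands, receptors, kinases, sensors, regulators and other interferon-stimulated genes, 1 row per list. Each circle is the fitted value of a gene, filled where called, and the vertical line is the median of the list, which is 1.38 for the 40 genes. The farthest point is SOCS3 at 4.37, a gene under 1 TPM.

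In the 5-FU responses of the other sensitive lines, few genes of these lists were called, where 8.14% of all genes in HCT-116 and 4.02% in DLD-1 were. In sensitive HCT-116 with 5-FU the only gene called was IFNE (0.199 to 1.03 TPM, log2 2.33, SE 0.47, edgeR adjusted p = 0.00025), and in sensitive DLD-1 UBA7 rose (1.44 to 4.04 TPM, log2 1.36) and DDX60 fell (1.07 to 0.705 TPM, log2 -1.08). Labelled resistant against sensitive HT-29 differed more, as it did over all genes: of 25 other interferon-stimulated genes, 5 were higher and 8 lower under uracil, and 3 were higher and 13 lower with 5-FU. In resistant against sensitive HCT-116, 1 of 24 was higher and 4 were lower under uracil, against 4.17% of all genes higher and 6.80% lower. In DLD-1 2 of 23 were higher and 0 lower, against 3.69% of all genes higher and 2.01% lower. Nothing is read from these small counts. UBE2L6 went in opposite directions between resistant and sensitive cells under uracil, from 9.33 to 25.2 TPM in DLD-1 (log2 1.40, SE 0.11) and from 26.4 to 7.36 TPM in HCT-116 (log2 -1.85, SE 0.09).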

How the data were processed

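Per the study's methods and the submitters' processing notes, reads were demultiplexed with bcl2fastq, returned from BAM to FASTQ files with Picard, checked with FastQC 0.11.8, trimmed with Trimmomatic 0.36 and quantified with kallisto 0.44.0 against Ensembl transcripts of GRCh38.p13. The authors deposited estimated counts and TPM per transcript and per gene for each of the 54 libraries; the gene values were used. kallisto divides reads among similar transcripts, so counts of related genes (IFIT, OAS, MX and IFITM families) are less certain where their sequences are alike.

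Estimated counts were rounded and tested with edgeR's quasi-likelihood test (edgeR 4.0.16, limma 3.58.1, R 4.3.3) with TMM scaling, filterByExpr and Benjamini-Hochberg adjustment over all genes tested, in 1 fit per line and, between lines, 1 fit of all 54 libraries. Calls needed an adjusted p up to 0.01 with a log2 fold change of 1 or more in size, and differences of responses needed the adjusted p alone. Levels are deposited TPM. Summaries and plots used Python 3.11.15, numpy 2.4.6, pandas 2.3.3 and matplotlib 3.10.9. On simulated counts the HT-29 fit recovered 98 of 100 genes changed by 1.5 log2 and 100 of 100 changed by 3. The DLD-1 fit made 3 false calls and the HT-29 fit 0. The simulation gave every gene the same small spread and changed only genes with enough counts. It therefore does not cover genes with few counts. DESeq2 1.42.0 was an alternative.

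Named genes were, per comparison, up to 6 called members with the largest log2 fold change among those at 1 TPM or more in either group, and the most abundant member of each role group. Other named members were chosen after their values were seen. Pathway genes were named by the same limit. The members and lists were chosen with earlier results of these data known. Promoter windows are from RefSeq (GRCh38.p14) and gene positions from GENCODE 44. A few listed genes are not reported here.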

Additional observations from a re-analysis of the deposited data

Results flagged for a closer look

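Differences between groups in the 5-FU response, tested as interaction terms in edgeR, are listed here. Values are differences of log2 fold changes.

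Resistant minus sensitive cells differed for 9 of the 34 genes tested in DLD-1, near the 22.8% of all genes that differed, with the largest among genes at 1 TPM or more at -1.23 for IFIT3. In HCT-116 they differed for 7 of 37, below the 29.7% of all genes, with TRIM22 at -2.25 and OAS3 at 1.61. In HT-29 they differed for 33 of 40, against 35.4% of all genes, with XAF1 at -3.00, IFI6 at -2.75, MX1 at -2.73, IFI44L at -2.16 and CXCL11 at -4.16. The labelled resistant 5-FU libraries held 1, 0 and 0 counts of CXCL11, so its fitted value depends on the prior count and is no bound. The labelled resistant HT-29 cells had the markers of HCT-116, so resistance and cell line cannot be told apart there.

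Between sensitive lines, HT-29 differed from DLD-1 for 35 genes (27.2% of all genes), with IFI44 at 5.71, BST2 at 3.61, MX1 at 2.85, IFI27 at 2.55 and IFI44L at 2.50. IFI44 and BST2 were nearly absent from DLD-1 except in uracil replicate 1, and without that library both were at 0.95 and not called. HT-29 differed from HCT-116 for 34 genes (34.9% of all genes), with OAS3 at 3.50, IRF7 at 2.74, IFI6 at 2.71, IFI27 at 2.49 and RSAD2 at 2.25. HCT-116 differed from DLD-1 for 13 (25.3% of all genes), with OAS1 at 1.67, IRF7 at -1.65 and OAS3 at -1.13. OAS1 was under 1 TPM in sensitive HCT-116 under uracil, and RSAD2 was at 0.0434 TPM in sensitive HCT-116 with 5-FU. The differences given for OAS1 and RSAD2 against HCT-116 values thus rest on low levels.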

How the results depend on the processing

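Of the 29 counts of called genes, 25 stayed within 1.5 times under each alternative run (DESeq2, library size alone, DESeq2 size factors, no filter on low counts, only the compared groups, the replicate block and, within a line, where it is not already the main analysis, all 54 libraries in one fit), and 0 results reversed. With no filter on low counts, sensitive DLD-1 5-FU against uracil gave 3 in place of 1, and resistant against sensitive DLD-1 under uracil 5 in place of 3. With only the compared groups, irradiation in resistant HCT-116 gave 0 in place of 1. With library size alone, the difference of 5-FU responses in HCT-116 gave 4 in place of 7. The cause was not tested. Leaving out 1 library at a time gave 0 to 1 called genes for sensitive DLD-1 with 5-FU, 3 to 5 for resistant against sensitive DLD-1 with 5-FU, 2 to 4 for sensitive HCT-116 with 5-FU, 0 to 1 for irradiation in resistant HCT-116, 7 to 11 for resistant against sensitive HCT-116 under uracil, and 29 to 30 for sensitive HT-29 with 5-FU. Same-numbered libraries had mean correlations near 0 (-0.0056 for DLD-1, 0.0119 for HCT-116, 0.0072 for HT-29). Libraries with other numbers had 0.0028, -0.0059 and -0.0036, so the same-numbered values were slightly higher in HCT-116 and HT-29. In these lines 4, 10 and 9 of the 18 libraries correlated best with their own number, and a weak pairing is not excluded. With the replicate block the differences of responses gave 8 in place of 9 in DLD-1 and 6 in place of 7 in HCT-116, and no other count changed. With library size alone the median of all genes in sensitive HT-29 shifted by 0.19 on the log2 scale. Genes with few counts, such as the chemokines, are limited by depth.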

Other observations

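Many of the 40 genes are neighbours in the genome, by their GENCODE 44 positions on GRCh38. Joined where the gap was at most 1000000 bases, 22 of the 40 fell into 9 groups, and their log2 fold changes in sensitive HT-29 with 5-FU lay near each other in some groups and apart in others. On chromosome 21 (chr21:41361999-41470071) MX1 had a log2 fold change of 2.19 and its neighbour MX2 0.81. On chromosome 10 (chr10:89283694-89421605) IFIT2, IFIT3 and IFIT1 had 1.85, 1.36 and 1.57, and IFIT5 0.77. On chromosome 12 (chr12:112905856-113011723) OAS1, OAS3 and OAS2 had 1.09, 1.90 and 1.70. On chromosome 2 (chr2:6840570-6898239) RSAD2 had 1.85 and CMPK2 0.77. IFI44L had 1.91 and IFI44 0.90, and CXCL11 had 1.67 and CXCL10 0.83. The values lay nearer each other for SAMD9L and SAMD9 (2.19 and 1.88), for HERC6 and HERC5 (1.47 and 1.18), and for PARP14, PARP9 and DTX3L (1.35, 0.98 and 0.93). These are values side by side, with no test between neighbours.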
